A study of Mus musculus with 20 samples.

Results

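The receptors through which the ovary reads the pituitary gonadotropins, prolactin and growth hormone are encoded in the mouse by Lhcgr, Fshr, Prlr and Ghr. These 4 genes were chosen by name, out of 54838 genes counted in each library, and all 4 passed the filter on low counts in every comparison. They were followed in whole ovaries of 20 female mice aged 77 days, from the Dummerstorf line FL1, selected over many generations for large and heavy litters, and from ctrl, the unselected line of the same outbred origin. Each line was sampled in estrus and in diestrus, staged by vaginal smear, with 5 animals and 1 library per animal in each of the groups ctrl estrus, FL1 estrus, ctrl diestrus and FL1 diestrus. No animal was treated and no gene was modified, and the line is a breeding population rather than an inbred strain, so animals within a group also differed genetically. The question was how the receptor transcripts differed between the lines within a stage and between the stages within a line.

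Luteinizing hormone (LH) acts through LHCGR on theca cells, on granulosa cells of large follicles and on luteal cells. Follicle-stimulating hormone (FSH) acts through FSHR on granulosa cells. Both receptors couple to the stimulatory G protein and raise cyclic AMP. The prolactin and growth hormone receptors belong to the cytokine receptor family and signal through the kinase JAK2 and the transcription factors STAT5A and STAT5B, and prolactin sustains the rodent corpus luteum, the progesterone-producing body formed from an ovulated follicle.

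The gonadotropin receptor genes are close neighbours, and the other receptor genes share a chromosome (GRCm38). Lhcgr (ENSMUSG00000024107) spans chr17:88716481-88791990 on the minus strand, and Fshr (ENSMUSG00000032937) spans chr17:88984952-89200675 on the same strand, 193.0 kb away. Prlr (ENSMUSG00000005268) spans chr15:10177238-10349180 on the plus strand, and Ghr (ENSMUSG00000055737) spans chr15:3317760-3583492 on the minus strand, 6593.7 kb away. The annotation lists 4 transcripts of Lhcgr, 1 of Fshr, 12 of Prlr and 10 of Ghr. The libraries were made by 3' tagging and counted per gene, so the long and short forms of the prolactin receptor, or the membrane receptor and the binding protein form of Ghr, were not told apart. Gm21973 overlaps Prlr on the same strand and had no count in any library.

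The start regions of the neighbouring gonadotropin receptor genes are shown because the ratio of their transcripts differed between the lines in diestrus. They come from RefSeq (GRCm38.p6), run 5′ to 3′ over 250 bases before and 50 bases after the annotated start, and cover chr17:88791965-88792264 for Lhcgr and chr17:89200626-89200925 for Fshr. Capitals mark the GC box GGGCGG in Lhcgr and the E box CACGTG in Fshr, searched on both strands.
Lhcgr: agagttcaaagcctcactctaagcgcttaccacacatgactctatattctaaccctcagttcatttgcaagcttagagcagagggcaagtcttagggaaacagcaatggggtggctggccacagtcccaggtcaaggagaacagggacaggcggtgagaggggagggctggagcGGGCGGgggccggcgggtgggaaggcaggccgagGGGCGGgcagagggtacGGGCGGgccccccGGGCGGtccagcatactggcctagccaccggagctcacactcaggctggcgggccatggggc
Fshr: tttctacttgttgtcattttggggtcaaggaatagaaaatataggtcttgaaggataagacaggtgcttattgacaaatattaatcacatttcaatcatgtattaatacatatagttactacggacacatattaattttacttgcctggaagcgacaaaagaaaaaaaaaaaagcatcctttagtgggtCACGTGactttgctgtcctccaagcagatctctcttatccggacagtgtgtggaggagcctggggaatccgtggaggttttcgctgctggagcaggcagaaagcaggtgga
The Lhcgr window held 4 GC boxes, at 76, 42, 25 and 12 bases before the start, and 64.0% of its bases were G or C. The Fshr window held 1 E box at 61 bases before the start, and 40.7% of its bases were G or C. Of 32851 windows of this kind, 35.7% held a GC box and 7.15% an E box, and the median GC content was 52.7%. The cyclic AMP response element TGACGTCA (1.79% of windows) and the steroidogenic factor 1 site CAAGGTCA (1.56%) were in neither window. The STAT site TTCNNNGAA (8.3% of windows) was found in 1 of the 3 Prlr windows and in neither Ghr window, while 1 Ghr window held 2 GC boxes. These are matches of letters, and the libraries carry no information on what binds there.

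The libraries held 5991223 to 10352718 counts. Levels are given as CPM, the counts of a gene per 1000000 counts of its library after the trimmed mean of M values (TMM) scaling of all 20 libraries, and as tags at transcript ends they are compared between libraries for 1 gene and not between genes. The luteal, granulosa and oocyte marker genes were counted in every group, whereas the granulosa gene Amh, which encodes anti-Müllerian hormone, reached at most 0.566 CPM and the theca gene Insl3 at most 0.462 CPM. The library ctrl diestrus 1 stood apart in pituitary hormone transcripts, as described with the ligands, and the receptor differences between the lines in diestrus are also given without it.

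Lhcgr was the receptor that varied most, from 47.9 to 697 CPM (272 to 4810 counts) over the 20 libraries. In ctrl estrus, replicates 1 to 5 had 63.8, 67.2, 53.5, 94.4 and 47.9 CPM of Lhcgr. In FL1 estrus they had 77.6, 104, 123, 92.5 and 77.3 CPM. Every FL1 estrus library lay above all ctrl estrus libraries except ctrl estrus 4. In ctrl diestrus, replicates 1 to 5 had 127, 243, 358, 288 and 81.6 CPM of Lhcgr. In FL1 diestrus they had 595, 342, 638, 682 and 697 CPM. The ctrl diestrus libraries fell into low values in replicates 1 and 5 and higher values in the other 3, while 4 of the FL1 diestrus libraries were at 595 CPM or more. The overlap in diestrus was a single pair, FL1 diestrus 2 below ctrl diestrus 3.

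In increasing order, the group means of Lhcgr were 65.4 ± 18.0 CPM in ctrl estrus, 94.8 ± 19.3 in FL1 estrus, 219.7 ± 114 in ctrl diestrus and 591 ± 145 in FL1 diestrus (SD, n = 5). Each neighbouring pair in this order overlapped, and the ctrl diestrus libraries 1 and 5 stood close to or within the estrus range.

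In diestrus, Lhcgr was higher in FL1 than in ctrl by 1.43 on the log2 scale (SE 0.32), 2.69-fold, with an adjusted p of 0.0209 by edgeR's quasi-likelihood test. Setting each FL1 diestrus library against each ctrl diestrus library gave 25 pairs, and FL1 was higher in 24. Lhcgr was the 1 receptor of 4 that passed the threshold there (adjusted p of at most 0.05), beside 4.11% of 13259 tested genes. The study singled out Lhcgr in diestrus from these same libraries, so its passing here is not independent evidence. The study also re-measured Lhcgr in diestrus by quantitative PCR in more animals, and reported it significantly higher in FL1. The number of animals given for that PCR equals the number given for all sampling of the line and stage. By these numbers the PCR animals include the sequenced ones, and so are not an independent set. Without ctrl diestrus 1 the difference was 1.28 with an adjusted p of 0.0340. The call was lost without FL1 diestrus 3, 4 or 5, where the difference was 1.36 to 1.40 and the adjusted p 0.0514 to 0.0561.

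In estrus, Lhcgr was higher in FL1 by 0.53 (SE 0.18), with an unadjusted p of 0.00937 and an adjusted p of 0.153, and so did not pass. None of the 4 receptors passed in estrus by edgeR, beside 2.33% of 13374 genes. An unadjusted p under the threshold was found for 1 of them, Lhcgr, beside 2121 of the 13374 genes. DESeq2 and limma-voom also called 0 of the 4. Without ctrl estrus 4, the library highest in Lhcgr of its group, the difference was 0.70 and passed with an adjusted p of 0.0424.

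**Figure D1:**
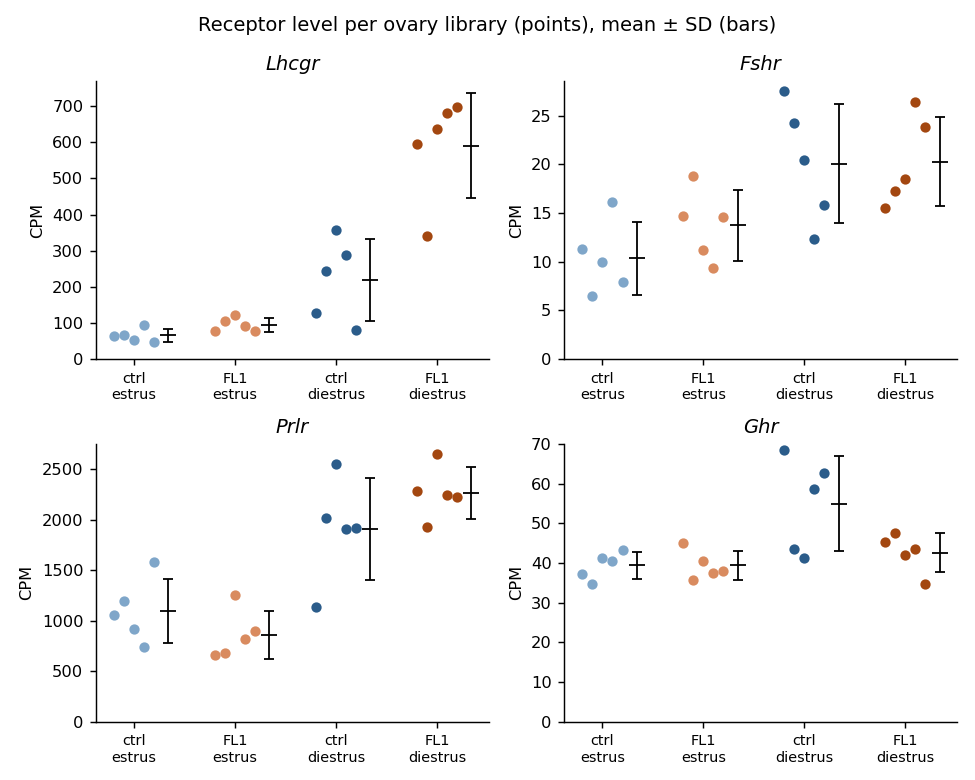
CPM (linear axes from 0) of Lhcgr, Fshr, Prlr and Ghr in each of the 20 ovary libraries, 5 points per group of line and stage in the order of their replicate numbers, with bars for mean ± SD. Lhcgr runs from 47.9 CPM in ctrl estrus to 697 CPM in FL1 diestrus, Prlr is high in both diestrus groups apart from ctrl diestrus 1 at 1137 CPM, and Ghr stays between 34.7 and 68.4 CPM.

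Between the stages, Lhcgr was higher in diestrus in both lines. In ctrl the difference was 1.75 (SE 0.34), 3.36-fold, with an adjusted p of 0.0161, and Lhcgr was the 1 receptor of 4 that passed by edgeR, beside 2.85% of 13334 genes. DESeq2 passed 3 of the 4 there, with Fshr and Prlr, and limma-voom passed 2, with Prlr. In FL1 it was 2.64 (SE 0.18), 6.23-fold, with an adjusted p of 6.3e-08, and every diestrus library lay above every estrus library, as in 6.51% of tested genes. It ranked 14 by p among 13350 tested genes. The 2 receptors that passed in FL1 by edgeR, Lhcgr and Prlr, stand beside 15.9% of genes called there, and DESeq2 and limma-voom passed 3, with Fshr. Both stage calls of Lhcgr passed under each left-out library, with adjusted p up to 0.0467 in ctrl and 8.32e-07 in FL1.

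The gain of Lhcgr from estrus to diestrus was 0.89 (SE 0.40) larger in FL1 than in ctrl, with an unadjusted p of 0.0376 and an adjusted p of 0.387. Neither Lhcgr nor another receptor passed the line-by-stage interaction, which called 0.0565% of 14154 genes with edgeR. With an unadjusted p under 0.05 there were 2 receptors, Lhcgr and Prlr, beside 1654 of the 14154 genes. DESeq2 and limma-voom also passed 0 receptors, with 1 and 2 at an unadjusted p under 0.05. The comparisons share libraries, since each group enters a comparison of lines and a comparison of stages.

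Fshr was counted at 39 to 291 reads per library, the fewest of the 4 receptors. In ctrl estrus, replicates 1 to 5 had 11.3, 6.47, 9.94, 16.1 and 7.93 CPM of Fshr. In FL1 estrus they had 14.7, 18.8, 11.2, 9.32 and 14.6 CPM. The ranges of the lines overlapped in estrus. In ctrl diestrus, replicates 1 to 5 had 27.5, 24.3, 20.5, 12.4 and 15.9 CPM of Fshr. In FL1 diestrus they had 15.5, 17.3, 18.5, 26.4 and 23.9 CPM. The FL1 diestrus libraries all lay within the ctrl diestrus range.

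The group means of Fshr were 10.3 ± 3.72 CPM in ctrl estrus, 13.7 ± 3.64 in FL1 estrus, 20.1 ± 6.13 in ctrl diestrus and 20.3 ± 4.62 in FL1 diestrus (SD, n = 5), and each neighbouring pair in this order overlapped. Between the lines Fshr differed by 0.39 in estrus (SE 0.26, adjusted p = 0.496) and by 0.00 in diestrus (SE 0.21, adjusted p = 0.999). With 1 library left out the estrus value ran from 0.25 without FL1 estrus 2 to 0.61 without ctrl estrus 4, and without ctrl diestrus 1 the diestrus value was 0.15 (adjusted p = 0.792). Between the stages the values were 0.95 in ctrl (SE 0.27, adjusted p = 0.0812) and 0.57 in FL1 (SE 0.20, adjusted p = 0.0618), just outside the threshold by edgeR. DESeq2 put both stage differences inside it, with adjusted p of 0.0171 in ctrl and 0.0447 in FL1. The interaction was -0.38 (SE 0.35, adjusted p = 0.710).

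Since LH and FSH act on different cells and steps of follicle growth, the receptors were also set against each other within each library, as the ratio of Lhcgr to Fshr counts, which needs no scaling between libraries. In ctrl estrus the ratio was 5.63, 10.3, 5.35, 5.84 and 5.99 in replicates 1 to 5. In FL1 estrus it was 5.25, 5.52, 10.9, 9.85 and 5.29. The lines covered the same range in estrus. In ctrl diestrus the ratio was 4.62, 10.0, 17.4, 23.1 and 5.13, and in FL1 diestrus it was 38.2, 19.7, 34.4, 25.8 and 29.1. Only FL1 diestrus 2 fell below a ctrl diestrus library.

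On the log2 scale the Lhcgr to Fshr ratio was 1.53 higher in FL1 than in ctrl in diestrus (24 of 25 pairs, exact permutation p = 0.0159, two-sided, adjusted p = 0.0423 over 8 ratio comparisons). It was 0.12 higher in estrus (exact permutation p = 0.929). From estrus to diestrus it rose by 2.04 in FL1 (25 of 25 pairs, exact permutation p = 0.00794, adjusted p = 0.0317), the smallest p that 5 against 5 allows. In ctrl the change was 0.63 (exact permutation p = 0.286), and 0.32 to 0.90 with 1 library left out, the highest without ctrl diestrus 1. The line difference in diestrus was not called when any 1 of the FL1 diestrus libraries was left out, with differences of 1.43 to 1.67 and adjusted exact p of 0.0635 to 0.127, whereas without ctrl diestrus 1 it was 1.26 with an adjusted exact p of 0.0423.

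**Figure D2:**
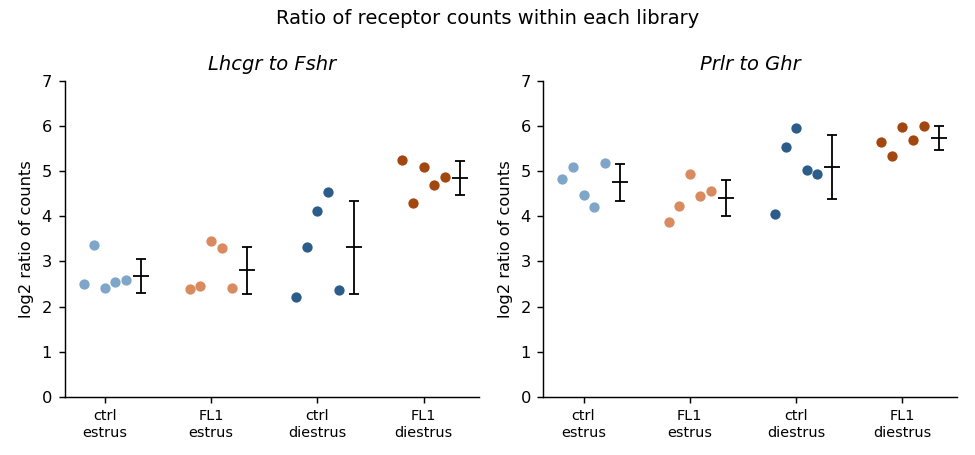
Log2 ratio of Lhcgr to Fshr counts (left) and of Prlr to Ghr counts (right) within each library, 5 points per group, with bars for mean ± SD. The mean Lhcgr to Fshr log2 ratio is 4.84 in FL1 diestrus against 3.31 in ctrl diestrus, 2.80 in FL1 estrus and 2.68 in ctrl estrus.

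Prlr, the prolactin receptor, had 4467 to 16978 counts per library. In ctrl estrus, replicates 1 to 5 had 1054, 1195, 915, 744 and 1579 CPM of Prlr. In FL1 estrus they had 658, 677, 1252, 819 and 894 CPM. The lines overlapped in estrus, and the highest library was ctrl estrus 5. In ctrl diestrus, replicates 1 to 5 had 1137, 2015, 2555, 1905 and 1914 CPM of Prlr. In FL1 diestrus they had 2286, 1927, 2652, 2242 and 2225 CPM. The diestrus libraries were at 1905 CPM or more in both lines with the exception of ctrl diestrus 1, which lay in the estrus range.

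The mean of Prlr was lowest in FL1 estrus at 859.9 ± 240.1 CPM, followed by ctrl estrus at 1097 ± 317, ctrl diestrus at 1905 ± 506 and FL1 diestrus at 2266 ± 258 (SD, n = 5). Each neighbouring pair in this order overlapped. FL1 and ctrl differed by -0.35 in estrus (SE 0.21, adjusted p = 0.439) and by 0.25 in diestrus (SE 0.16, adjusted p = 0.469), neither past the threshold. Both values depended on single libraries. Without ctrl diestrus 1 the diestrus difference was 0.11 (adjusted p = 0.688), and without ctrl diestrus 3 it was 0.38 (adjusted p = 0.217). The estrus difference was -0.18 without ctrl estrus 5 and -0.53 without FL1 estrus 3.

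From estrus to diestrus, Prlr rose in FL1 by 1.40 (SE 0.15), 2.64-fold, with an adjusted p of 1.02e-05 and every diestrus library above every estrus library. In ctrl the difference was 0.80 (SE 0.22) with an adjusted p of 0.0746. That value depended on single libraries and on the tool. Without ctrl diestrus 1 it was 0.94 with an adjusted p of 0.0223, and without ctrl estrus 5 it was 0.97 with an adjusted p of 0.0218. DESeq2 gave an adjusted p of 0.00796 and limma-voom one of 0.0111. The fat marker Adipoq, which encodes adiponectin, stood at 13.0 CPM in ctrl estrus 5 and at most 5.59 CPM elsewhere, and its fat markers summed to 664 CPM, the highest of all libraries. The same library had the highest luteal sum of all estrus libraries, 41545 CPM beside 15890 to 31878 CPM in the rest of its group, and the lowest granulosa sum of all 20 libraries, 1950 CPM. The part of these cell types in its Prlr value was not tested. The interaction of Prlr was 0.60 (SE 0.28), with an unadjusted p of 0.0456 and an adjusted p of 0.414.

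Ghr, the growth hormone receptor, varied least, with 208 to 723 counts per library. In ctrl estrus, replicates 1 to 5 had 37.2, 34.8, 41.2, 40.4 and 43.3 CPM of Ghr. In FL1 estrus they had 45.1, 35.8, 40.5, 37.6 and 37.9 CPM. The lines were alike in range in estrus. In ctrl diestrus, replicates 1 to 5 had 68.4, 43.6, 41.2, 58.7 and 62.7 CPM of Ghr. In FL1 diestrus they had 45.3, 47.4, 42.0, 43.5 and 34.7 CPM. The ctrl diestrus libraries 1, 4 and 5 were above all other libraries, and 2 and 3 were within the range of the other groups.

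Mean Ghr was 39.4 ± 3.37 CPM in ctrl estrus, 39.4 ± 3.60 in FL1 estrus, 42.6 ± 4.86 in FL1 diestrus and 54.9 ± 11.9 in ctrl diestrus (SD, n = 5), with overlap between neighbours throughout. Between the lines Ghr differed by 0.00 in estrus (SE 0.11, adjusted p = 0.996) and by -0.37 in diestrus (SE 0.14, adjusted p = 0.188), or by -0.27 without ctrl diestrus 1 (adjusted p = 0.341). Between the stages it differed by 0.48 in ctrl (SE 0.15, adjusted p = 0.110) and by 0.12 in FL1 (SE 0.11, adjusted p = 0.506). The interaction was -0.37 (SE 0.18, adjusted p = 0.437), so no comparison of Ghr passed by edgeR within the libraries compared. In 1 fit of all 20 libraries the stage difference in ctrl passed.

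Within the libraries, the ratio of Prlr to Ghr counts ranged from 18.4 to 36.4 in ctrl estrus and from 14.6 to 30.8 in FL1 estrus. It ranged from 16.6 in replicate 1 to 61.9 in replicate 3 of ctrl diestrus, and from 40.6 to 63.9 in FL1 diestrus. On the log2 scale the ratio rose by 1.32 from estrus to diestrus in FL1 (25 of 25 pairs, exact permutation p = 0.00794, adjusted p = 0.0317). The difference of the lines in diestrus was 0.63 (21 of 25 pairs, exact permutation p = 0.0794, adjusted p = 0.159), and 0.37 without ctrl diestrus 1. It was -0.34 in estrus and the stage difference in ctrl was 0.34, with exact permutation p of 0.230 and 0.381. With 1 library left out these ran from -0.48 to -0.21 and from 0.13 to 0.60.

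**Figure D3:**
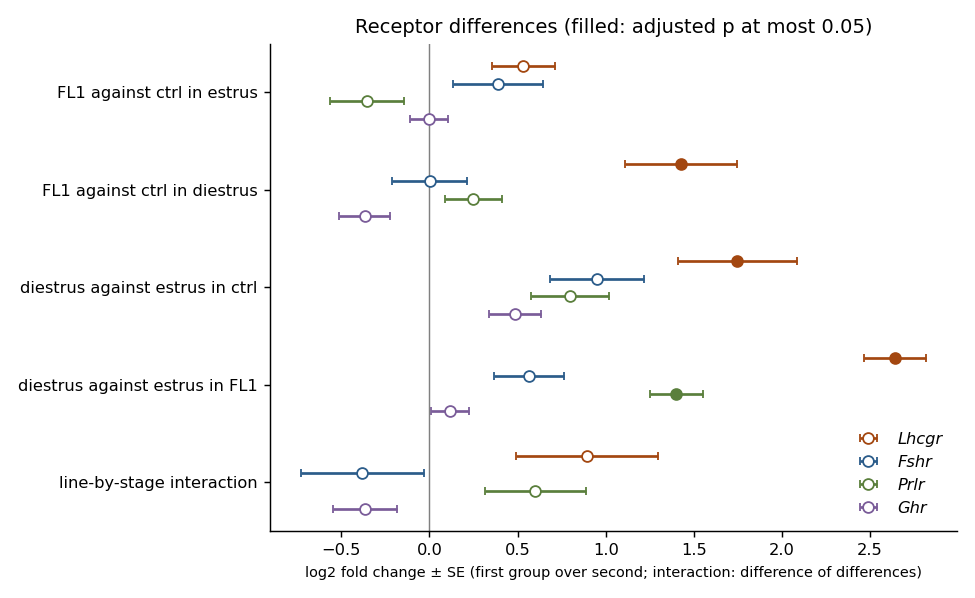
Log2 fold change ± SE of each receptor in the 5 edgeR comparisons, with filled points for an adjusted p of at most 0.05. The filled points are Lhcgr in diestrus (1.43), in both stage comparisons (1.75 and 2.64) and Prlr between the stages in FL1 (1.40), and no interaction point is filled.

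Marker genes of the cell types that carry the receptors also differed between the stages. In whole ovaries, more cells of a type and more RNA per cell cannot be told apart. The 10 luteal markers summed to 18406 to 35863 CPM in FL1 estrus and to 38872 to 49062 CPM in FL1 diestrus, with 8 of 10 higher and 1 lower in diestrus, beside 8.49% of all tested genes higher and 7.42% lower. In ctrl the sums were 15890 to 41545 CPM in estrus and 29874 to 52571 CPM in diestrus, with 1 of 10 called, beside 2.85% of all genes. Of 11 tested granulosa markers, 4 were higher and 2 lower in FL1 diestrus than in FL1 estrus, and 2 of 6 theca markers were higher. Blood markers rose in FL1 as well, 4 of 5 tested. Oviduct markers summed to at most 37.3 CPM and fat markers to 295 to 664 CPM over all libraries. A marker of each was lower in FL1 diestrus than in FL1 estrus. Krt7, a keratin of the oviduct list, stood at 12.6 to 30.4 CPM in FL1 estrus and at 3.83 to 10.7 CPM in FL1 diestrus (-1.47, adjusted p = 0.00161 by edgeR). The oviduct sums were 18.1 to 37.3 CPM and 6.67 to 14.2 CPM. Krt7 made up most of each of these sums, such as 30.4 of 37.3 CPM in FL1 estrus 2. Ovgp1, Foxj1 and Pax8 of the same list reached at most 1.82, 2.36 and 1.89 CPM in any library. Fabp4, a fatty acid-binding protein of the fat list, stood at 18.4 to 59.2 CPM in FL1 estrus and at 3.55 to 12.8 CPM in FL1 diestrus (-2.08, adjusted p = 5.28e-04 by edgeR). It was the 1 fat marker called of 7 tested, whose median difference was -0.65. The fat sums did not fall with it, at 327 to 454 CPM in FL1 estrus and 361 to 451 CPM in FL1 diestrus. Lpl and Plin4 were the most counted genes of these sums. Lpl averaged 211 CPM in FL1 estrus and 193 in FL1 diestrus, and Plin4 98.6 and 180. Between the lines in diestrus, 1 of 10 luteal markers (Hsd17b7) and 1 of 11 granulosa markers (Foxl2) were called, both higher in FL1, beside 4.11% of all genes. Of 13 oocyte markers 1 was called there, the receptor tyrosine kinase Kit, lower in FL1 (-1.37, adjusted p = 0.0188). The study re-measured Foxl2 and Kit in diestrus by quantitative PCR in more animals, which by its numbers include the sequenced ones. Kit was again lower in FL1, while Foxl2 had the opposite sign and was not marked as significant. The summed luteal markers covered 38872 to 49062 CPM in FL1 diestrus, within the ctrl diestrus range. That sum follows its most counted genes, which moved in opposite directions. Akr1c18 averaged 13940 CPM in ctrl diestrus and 10109 in FL1 diestrus, and Cyp11a1 9771 and 11903. By edgeR, 5 of the 10 luteal markers had an unadjusted p under 0.05 between the lines in diestrus, beside 2351 of 13259 genes. The part of cell numbers and of other tissues in the receptor values was not tested.

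The low Lhcgr libraries of ctrl diestrus differed from each other in these lists. Ctrl diestrus 1 had the lowest luteal sum of its group, 29874 CPM, and ctrl diestrus 5, at 43011 CPM, had the lowest sum of blood markers of all libraries, 443 CPM. Their part in the Lhcgr values was not tested.

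The ligands themselves are made in the pituitary. Prl, the prolactin transcript, was nevertheless counted at 217.5 CPM (2300 reads) in ctrl diestrus 1, with Gh, the growth hormone transcript, at 126 CPM (1335 reads) and Pomc, the precursor of corticotropin, at 42.3 CPM. In the other libraries Prl reached 19.1 CPM in FL1 estrus 1, 14.0 CPM in FL1 estrus 2, 8.85 CPM in FL1 diestrus 5, 7.27 CPM in ctrl diestrus 2 and 5.46 CPM or less elsewhere. In each of the 5 libraries with the most Prl, Gh stood at 4.25 CPM or more. The ratio of Prl to Gh counts was 1.72 in ctrl diestrus 1, 1.71 in ctrl diestrus 2, 1.94 in FL1 estrus 1, 2.82 in FL1 estrus 2 and 1.29 in FL1 diestrus 5. In FL1 estrus 5 it was 0.488, with more Gh (4.61 CPM) than Prl (2.25 CPM). Pomc was lower in FL1 diestrus than in FL1 estrus (-2.16, SE 0.63, adjusted p = 0.0265 by edgeR). FL1 estrus 1 and 2, also high in Prl, held 15.2 and 8.27 CPM of Pomc. FL1 estrus 3 to 5 held 2.42, 1.78 and 1.50 CPM, overlapping FL1 diestrus at 0.501 to 2.23 CPM. The gonadotropin and thyrotropin subunits Lhb, Fshb, Cga and Tshb had at most 16 counts in any library, and Cga reached that in ctrl diestrus 1. The same library was the lowest of its group in Prlr and next to lowest in Lhcgr and the highest in Fshr and Ghr, and the part of its pituitary transcripts in these values was not tested.

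**Figure D4:**
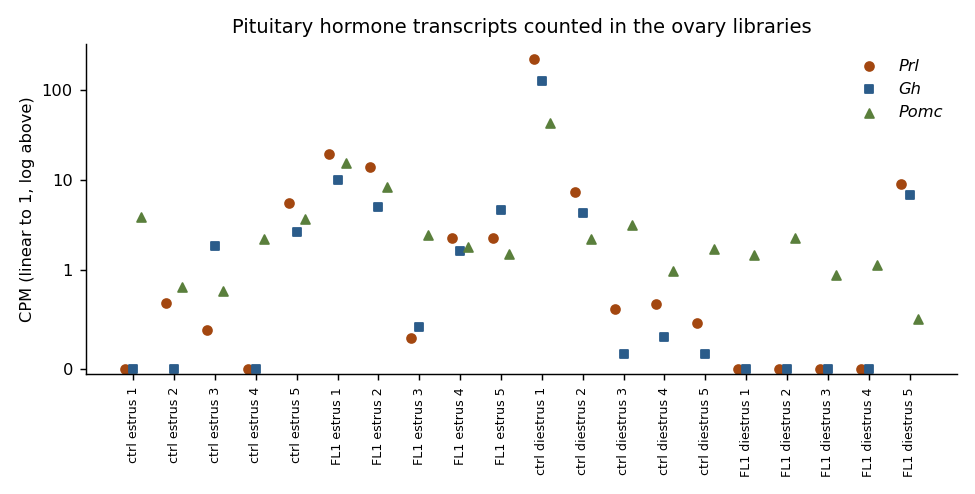
CPM of Prl, Gh and Pomc in each of the 20 ovary libraries (axis linear up to 1 CPM and logarithmic above). Ctrl diestrus 1 holds 217.5 CPM of Prl, 126 CPM of Gh and 42.3 CPM of Pomc, and no other library holds more than 19.1 CPM of any of them.

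The lists of other receptors, signalling genes and response genes were drawn up by role and are described by counts and medians. In FL1, where 8.49% of all tested genes were higher and 7.42% lower in diestrus than in estrus, the median difference was 0.10 in the cyclic AMP list, 0.27 in the FSH-responsive list, -0.14 in the LH-induced list, 0.78 in the steroidogenic list, 0.40 in the prolactin-responsive list and 0.10 in the JAK-STAT list, beside -0.01 over all genes. In ctrl the same medians were -0.02, 0.18, 0.11, 0.64, 0.61 and 0.06, beside 0.01 over all genes. Between the lines in diestrus they lay between -0.01 and 0.12, and in estrus between -0.12 and 0.24, beside -0.01 over all genes in both. Of 6 other receptors of pituitary or hypothalamic hormones, only the oxytocin receptor Oxtr passed the filter, at 22.3 to 135 CPM, and it passed no comparison (1.04 in diestrus between the lines, SE 0.34, adjusted p = 0.116). The thyrotropin receptor Tshr reached 1.58 CPM, the corticotropin receptor Mc2r 0.377 CPM and the gonadotropin-releasing hormone receptor Gnrhr 0.946 CPM, and Mc5r had no count.

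Downstream of LHCGR and FSHR, 33 of 35 genes of cyclic AMP signalling were tested. In FL1, 6 were higher and 2 lower in diestrus than in estrus, beside 8.49% and 7.42% of all genes. Among them were Crem, a cyclic AMP-responsive transcription factor (0.87), Rapgef3, the exchange factor EPAC that binds cyclic AMP (0.87), Pde8a, a phosphodiesterase (0.63), and Adcy3, an adenylyl cyclase (-0.57). In ctrl, 1 was lower, the adenylyl cyclase Adcy7 (-0.88), beside 2.85% of all genes called. Between the lines edgeR called 0 of the 33 in either stage, beside 2.33% of all genes called in estrus and 4.11% in diestrus. At an unadjusted p under 0.05 there were 11 of the 33 in estrus and 5 in diestrus. Over all genes, 2121 of 13374 in estrus and 2351 of 13259 in diestrus were at that level.

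Among genes that respond to FSH in granulosa cells, 24 of 25 were tested. Between the lines in diestrus, 3 of the 24 were higher in FL1, beside 4.11% of all genes called. These were Lrp8, a lipoprotein receptor (1.76, SE 0.25, adjusted p = 0.00113), Foxl2, a granulosa transcription factor (0.53), and the protease inhibitor Serpine2 (0.49). For Foxl2 the study's quantitative PCR had the opposite sign. From estrus to diestrus, 9 of the 24 were higher and 1 lower in FL1, beside 8.49% and 7.42% of all genes. Among the 9 were Cyp19a1, the aromatase that makes estrogens (1.38, SE 0.23, adjusted p = 6.99e-04), and Inhba, a subunit of activin and inhibin (0.81). In ctrl Inhba alone passed (1.50), beside 2.85% of all genes, and Cyp19a1 was at 1.56 (SE 0.48) with an adjusted p of 0.117. Fshr itself passed between the stages in neither line by edgeR and in both by DESeq2.

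Of the genes that the LH surge induces before ovulation, 5 of 18 tested were lower and 2 higher in FL1 diestrus than in FL1 estrus. Over all genes 7.42% were lower and 8.49% higher. The protease Adamts1 was at -2.28, the endothelin Edn2 at -2.23, the matrix organizer Tnfaip6 at -1.55 and the protease inhibitor Timp1 at -1.29. In ctrl, Adamts1 alone of 18 was called, lower in diestrus (-1.75), beside 2.85% of all genes. Between the lines in diestrus 1 of 17 passed, the phosphatase Dusp6, higher in FL1 (0.56), beside 4.11% of all genes. The epidermal growth factor-like ligand Areg, a product of the LH surge, had at most 3 counts in a library, and the progesterone receptor Pgr passed no comparison.

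Steroidogenic genes of theca and luteal cells rose with stage, 7 of 11 in FL1 with 1 lower and 2 of 11 in ctrl. Over all genes, 15.9% were called in FL1 and 2.85% in ctrl. Cyp17a1, the enzyme of androgen synthesis in theca cells, rose by 5.02 in ctrl (SE 0.71) and by 3.83 in FL1 (SE 0.18). Hsd17b7, which makes estradiol from estrone and also acts in cholesterol synthesis, rose by 3.27 in ctrl (SE 0.48, adjusted p = 0.00360) and by 5.41 in FL1 (SE 0.32, adjusted p = 1.56e-08). Star, the cholesterol carrier of the mitochondria (1.56), and Scarb1, the receptor for high-density lipoprotein (1.18), rose in FL1.

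Hsd17b7 is also known as the prolactin receptor-associated protein, since its product was found bound to the prolactin receptor of the corpus luteum. In ctrl diestrus it stood at 416, 641, 1032, 902 and 91.0 CPM in replicates 1 to 5. In FL1 diestrus it stood at 3288, 1989, 2531, 2892 and 2040 CPM. The estrus libraries held 40.2 to 128 CPM in both lines. Ctrl diestrus 5 had an estrus level of Hsd17b7, as it had of Lhcgr, although its Prlr was at 1914 CPM. Between the lines in diestrus the difference was 2.05 (SE 0.43, adjusted p = 0.0152), and in estrus it was -0.09 (SE 0.30, adjusted p = 0.918). The line-by-stage interaction was 2.14 (SE 0.58) with an adjusted p of 0.142.

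**Figure D5:**
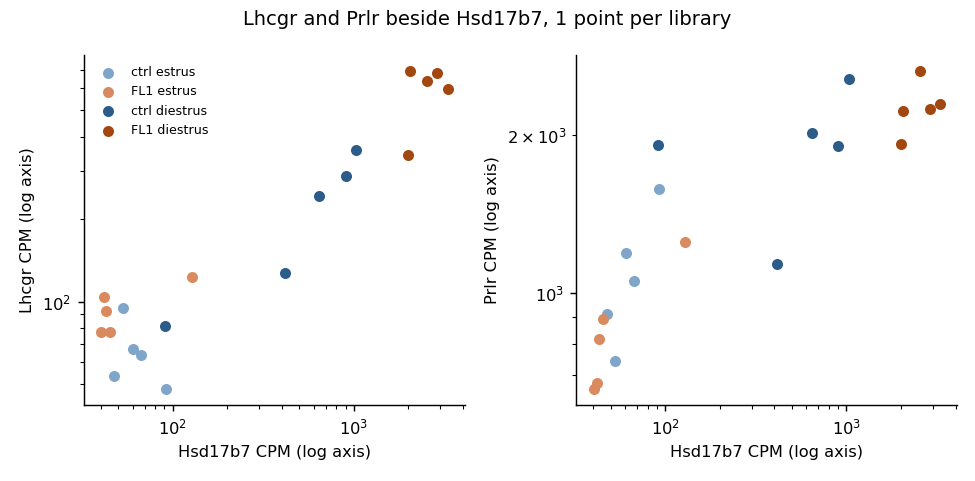
Lhcgr (left) and Prlr (right) against Hsd17b7 in CPM, both axes logarithmic, 1 point per library coloured by group. FL1 diestrus libraries lie at 1989 to 3288 CPM of Hsd17b7, ctrl diestrus libraries at 91.0 to 1032 CPM and estrus libraries at 40.2 to 128 CPM.

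Prolactin-responsive genes of the corpus luteum, 14 tested, overlapped with the luteal and steroidogenic lists. In FL1, 7 were higher and 1 lower in diestrus than in estrus, beside 8.49% and 7.42% of all genes. In the lead were Hsd17b7, the protease inhibitor A2m (1.82), Star and Cish, an inhibitor of cytokine signalling (1.46). In ctrl, Hsd17b7 was higher and Parm1 lower (-0.83), beside 2.85% of all genes called. Between the lines in diestrus only Hsd17b7 of these 14 was called, beside 4.11% of all genes. In estrus A2m was higher (1.78) and the estrogen receptor Esr1 lower (-0.74) in FL1, beside 2.33% of all genes called. Akr1c18, which inactivates progesterone and is repressed by prolactin, passed no comparison (-0.46 between the lines in diestrus, adjusted p = 0.273). Ptgfr, the prostaglandin F receptor of luteal cells, rose with stage in FL1 (0.86, SE 0.17, adjusted p = 0.00268).

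The JAK-STAT list holds genes downstream of PRLR and GHR and also other cytokine receptors, Lepr, Epor and Il6st. Of its 32 genes, 30 to 32 were tested. Jak2, Stat5a, Stat5b and the suppressor Socs2 passed no comparison. Jak2 differed by 0.03 between the lines in diestrus (SE 0.13), Stat5a by 0.21 (SE 0.17) and Stat5b by 0.16 (SE 0.10). Between the lines edgeR called 0 of 31 in diestrus and 1 of 30 in estrus, the leptin receptor Lepr, lower in FL1 (-1.07). Over all genes it called 4.11% in diestrus and 2.33% in estrus. At an unadjusted p under 0.05 in diestrus there were 9 of the 31, beside 2351 of 13259 genes. From estrus to diestrus, 5 JAK-STAT genes were higher and 1 lower in FL1, beside 8.49% and 7.42% of all genes. Among them, the erythropoietin receptor Epor was at 1.91, Cish at 1.46 and the phosphatase Ptpn6 at 0.94. Igf1, the growth factor induced by growth hormone in the liver, was at -0.48. In ctrl, Lepr (-1.74) and the adaptor Grb10 (-0.58) were lower, beside 2.85% of all genes called.

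The genes whose log2 CPM ran most like Lhcgr over the 20 libraries were Unc13d (Pearson's r 0.97), Bace2 (0.96), Aatk (0.96), Dpysl4 (0.95) and Hsd17b7 (0.95), out of 14152 others. For Prlr they included 6430548M08Rik (0.96), Msmo1 (0.94), Stard4 (0.94) and Gm15543 (0.92). For Fshr, r was 0.81 or less, with Got1, Me3, Inhba, Cetn2 and Kcne2. For Ghr it was 0.79 or less, with Pfdn5, Tulp2, Satb1, Klf16 and Sncaip. These values carry the group differences of stage and line and the shared libraries. Bace2, for instance, averaged 19.8 and 21.1 CPM in ctrl and FL1 estrus, 159 in ctrl diestrus and 390.2 in FL1 diestrus.

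With the 4 group means removed, the genes closest to Lhcgr were Bace2 (r = 0.86), Ssu2 (0.86), Tspan15 (0.83), Smpdl3b and Dpysl4 (both 0.81). Closest to Prlr were Runx2 (0.94), a transcription factor that luteinizing cells express, Shisa5 (0.92), Cpt1a (0.90), Samd9l (0.90) and Rnf123 (0.89). For Fshr the highest r was 0.76 with Xrcc5, followed by Cobl, Cir1 and Rab39b. For Ghr it was 0.83 with the pseudogene Rpl10a-ps2, followed by Gm17619, Rpl31-ps17, Asap3 and Prmt7. Rpl10a-ps2, Gm17619, Rpl31-ps17 and Asap3 averaged 2.89 CPM or less and Rab39b 1.65 CPM, so their r rest on few counts. Among the receptors themselves, the deviations of Lhcgr and Prlr had r = 0.27, those of Lhcgr and Fshr 0.15, those of Lhcgr and Ghr -0.65 and those of Fshr and Prlr -0.52, each over 20 libraries.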

How the data were processed

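Ovaries of 20 mice were sequenced by the authors with the QuantSeq 3' forward kit on an Illumina HiSeq (reads of 51 nt after trimming), and aligned with STAR to GRCm38 (Ensembl release 95). The labels also name Cuffdiff. The line of each library came from its title, which the genotype label (WT or FL1) matches, while the source label names FL1 for all 20 libraries. The counting tool and its strand setting are not given in the sources used here. What the authors deposited are unnormalized read counts per Ensembl gene, 1 table for each library. The 4 receptors and the gene lists were chosen with earlier results of these data known.

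From these counts, edgeR 4.0.16 (R 4.3.3, limma 3.58.1) was run with TMM factors, filterByExpr (minimum count 10) and the quasi-likelihood test within the libraries of each comparison, and over all 20 for the interaction. P-values were adjusted over all tested genes by the Benjamini-Hochberg method, and an adjusted p of at most 0.05 was called. Standard errors are the absolute log2 fold change over the square root of F. Symbols came from a gene name table that matched 54723 of 54838 genes, and positions from GENCODE M21. Ratios used counts plus 0.5 and an exact two-sided permutation test over 252 splits, adjusted over 8 comparisons (Python 3.11.15, numpy 2.4.6, pandas 2.3.3, scipy 1.17.1, matplotlib 3.10.9). Log2 CPM for likeness used a prior count of 2 and genes that passed the filter over 20 libraries. P-values set a difference between groups against the spread between their libraries, 1 per animal.

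Named were the 4 receptors, at most 4 called members of largest change per list and comparison, a fixed set (the ligands, other hormone receptors, Jak2, Stat5a, Stat5b, Socs2, Cish, Cyp19a1, Akr1c18, Hsd17b7, Ptgfr, Pgr, Areg), and the 5 genes most like each receptor, of which some are not reported here. Low or defining markers and Adipoq were named after their values were seen. Alternatives were DESeq2's size factors (RLE), DESeq2 1.42.0, limma-voom with sample weights, other filters, 1 fit of all libraries, a replicate block, a pseudocount of 5 and each library left out. The test was tried on simulated data. Libraries were checked for duplicates, with none found among 40 pairs. Same-numbered libraries are different animals. Their deviations from the group means had a median r of 0.00446 over 30 pairs of libraries, 4 of them over 0.1 and the highest 0.195. Among 120 pairs of other numbers the median r was -0.0058, with 4 over 0.1 and the highest 0.135. A shared handling of some same-numbered libraries was not tested.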

Additional observations from a re-analysis of the deposited data

Results flagged for a closer look

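In each group of 5 libraries, a value was picked out when its gap to the nearest library took more than 0.71 of the group's range, over the receptors, their ratios, Hsd17b7, Oxtr, Prl, Gh and Pomc. Of 44 such groups 9 were picked out, and chance alone picks about 1 in 20. Lhcgr in FL1 diestrus was one of them, with replicate 2 at 341.7 CPM below the others at 595 to 697 CPM. The log2 ratio of Lhcgr to Fshr in ctrl estrus was another, with replicate 2 at 3.36 above the others at 2.42 to 2.58. Hsd17b7 in FL1 estrus was at 128 CPM in replicate 3 and at 40.2 to 45.1 CPM in the others, and that library was also the highest of its group in Lhcgr (123 CPM) and Prlr (1252 CPM).

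In ctrl diestrus, replicate 1 stood out in Prl (217.5 CPM), Gh (126.3 CPM) and Pomc (42.3 CPM), with the others at most at 7.27, 4.25 and 3.16 CPM. Prl in ctrl estrus was at 5.46 CPM in replicate 5 and at most 0.663 CPM in the others. In FL1 diestrus, replicate 5 had 8.85 CPM of Prl and 6.84 CPM of Gh, and both were listed at 0 in the other 4 libraries.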

How the results depend on the processing

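Both stage differences of Lhcgr and that of Prlr in FL1 passed under all 17 alternatives, and the diestrus line difference of Lhcgr under 14 of 17. The DESeq2 size factors moved no call of a receptor. Fshr between the stages passed in ctrl with DESeq2 (0.96), with at least 1 count in total (0.95) and in 1 fit of all 20 libraries (0.94), and in FL1 with DESeq2 (0.57), limma-voom (0.65) and at least 1 count (0.57). Prlr between the stages in ctrl passed with DESeq2 (0.80), limma-voom (0.95), at least 1 count (0.80) and 1 fit of all libraries (0.80), and Ghr in ctrl with 1 fit of all libraries (0.48). Values near 0 changed sign with no call. For Ghr between the lines in estrus these were 4.52e-04 with RLE, 4.12e-04 with limma-voom and 0.0128 with at least 10 counts in every library. The cause of these changes was not tested.

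With 1 library left out, the line difference in estrus ran from 0.42 to 0.70 for Lhcgr and from -0.0572 to 0.0379 for Ghr, and in diestrus from 1.22 to 1.67 for Lhcgr and from -0.13 to 0.15 for Fshr. The stage difference in ctrl ran from 0.81 to 1.17 for Fshr and from 0.68 to 0.97 for Prlr, and in FL1 from 0.45 to 0.70 for Fshr and from 0.0772 to 0.18 for Ghr. The interaction of Fshr ran from -0.61 to -0.24. Fshr passed between the stages without ctrl estrus 4 in ctrl, and without FL1 estrus 2 or FL1 diestrus 1 in FL1. The log2 ratio of Lhcgr to Fshr between the lines ran from -0.0406 to 0.29 in estrus and from 1.26 to 1.84 in diestrus, and that of Prlr to Ghr in diestrus from 0.37 to 0.85, where it passed without ctrl diestrus 3 (adjusted exact p = 0.0476).

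Genes called between the lines numbered 311 in estrus, and 670 with DESeq2, 477 with at least 1 count, 531 in 1 fit of all libraries and 175 to 418 with 1 library left out (175 to 189 without FL1 estrus 1, 2, 4 or 5). In diestrus they numbered 545, and 891 with DESeq2, 846 with at least 1 count and 349 to 594 with 1 library left out. Between the stages in ctrl they numbered 380, and 771 with DESeq2, 653 with limma-voom, 909 in 1 fit and 176 to 516 with 1 library left out. The interaction called 8, and 148 with DESeq2, 31 with limma-voom, 17 with at least 1 count and 0 to 15 with 1 library left out, beside 1654 at an unadjusted p under 0.05.

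The replicate block changed no call of a receptor in edgeR (Lhcgr between the lines 0.55 in estrus and 1.55 in diestrus, adjusted p = 0.140 and 0.0260), and the block called 230, 498, 259, 2020 and 12 genes in the 5 comparisons. The block test of the ratios, an exact sign-flip test, cannot go below 0.0625, the value it gave for Lhcgr to Fshr between the lines in diestrus (1.53) and for both ratios between the stages in FL1 (2.04 and 1.32), so it could not pass. Fshr, at 39 to 291 counts, is the receptor whose values depth limits most.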
